A study of Homo sapiens with 2 samples.

Results

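H3K9me3 was examined over the zinc finger genes that lie outside the main gene families of chromosomes 7, 8 and 19. These were taken as all gene intervals whose symbol is ZNF or ZFP, a number and at most 1 further letter, on chromosomes 1 to 22 without those 3. The rule found 218 of the 35812 symbols, each with 1 interval, on 18 chromosomes. The rule uses names and positions and no measured value. It was then asked whether genes with zinc finger neighbours carry the mark differently from genes without them. A member was called clustered when 2 or more other members lay within 500 kb of it (83 genes), paired when 1 did (24 genes) and solitary when 0 did (111 genes). All 218 were matched to protein-coding genes, 14 of them through an older symbol.

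The measurements come from KBM7, a near-haploid human cell line from a chronic myeloid leukemia. Chromatin crosslinked with formaldehyde was precipitated for H3K9me3 in 1 library and with IgG in the other, from untreated cells as far as the labels say. The IgG library has no value in any comparison made here. All values below come from the 1 H3K9me3 library, so a difference between genes has no replicate check and no p-value, and the Poisson intervals of scores reflect the counting of reads alone. The identity of the cells was not checked, since the mark does not report RNA. KBM7 is known for an extra copy of chromosome 8 and of a piece of chromosome 15. The scores are not corrected for copy number, and the 2 members between 60 and 90 Mb of chromosome 15, ZNF609 and ZNF592, scored 42.0 and 36.5 reads per kb without a peak.

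Proteins with C2H2 zinc fingers form the largest family of human transcription factors. Many carry a KRAB domain, which recruits the corepressor TRIM28 and the methyltransferase SETDB1, and these place H3K9me3 at the DNA the fingers bind, often a transposable element. The genes for KRAB proteins arose by tandem duplication, lie in clusters, and are themselves known to carry H3K9me3, above all over the long last exon that encodes the fingers. Other members of the ZNF series have no KRAB domain and no close relatives beside them, among them general activators, ribosome factors and regulators of mitosis. Which members hold a KRAB domain was not analysed here.

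Read depth set the precision. The gene score used here is the number of reads in the gene interval per kb. Members held between 29 and 32925 reads, with a median of 2024. The score of ZNF830, with 29 reads in 1.66 kb, was 17.5 (95% Poisson interval 11.7 to 25.1), and that of ZNF385D, with 32925 reads, 34.5 (34.1 to 34.9). Of the members, 108 overlapped the interval of another gene and so shared reads with it, and 9 overlapped another member. Mappability was not used, so a low score of a gene with near-identical copies may lack reads that could not be placed.

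Clustered members carried far more H3K9me3 than solitary ones. The median score was 135 reads per kb over the 83 clustered genes (25th to 75th percentile 77.0 to 171), 41.9 over the 111 solitary genes (22.95 to 74.0) and 40.6 over the 24 paired genes (27.3 to 127). The ratio of clustered to solitary medians was 3.24, a log2 ratio of 1.69. The solitary median lay close to the median of all symbols, 43.5, and above that of 14767 other protein-coding genes of the same chromosomes, 33.4. The 2 distributions overlapped: clustered genes ran from 11.5 to 264 and solitary genes from 11.2 to 225.

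Counts against fixed levels also set clustered above solitary genes. Of all members 136 scored above the median of all symbols, a level that 50% of all symbols and 35.0% of the other protein-coding genes of these chromosomes exceed. These were 72 of 83 clustered genes (86.7%), 11 of 24 paired genes and 53 of 111 solitary genes (47.7%). The 90th percentile of all symbols, 147 reads per kb, was exceeded by 36 clustered, 3 paired and 11 solitary genes. That level is exceeded by 10.0% of all symbols and 1.52% of the other protein-coding genes. The share was thus 43.4% among clustered, 12.5% among paired and 9.91% among solitary genes. Members of a cluster are neighbours and some share reads, so these shares carry no interval.

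Peaks told the groups apart in the same way, by their presence and by their extent. A peak overlapped 68 of the 83 clustered genes (81.9%) and 65 of the 111 solitary genes (58.6%), against 36.8% of all symbols and 42.9% of the other protein-coding genes. Peaks covered on average 50.1% of a clustered gene (SD 33.5), 22.7% of a paired gene (SD 31.5) and 15.5% of a solitary gene (SD 24.0), against 5.88% of the other protein-coding genes. Of the clustered genes 46 had 50% or more of their length in peaks, as had 14 solitary and 5 paired genes, a level reached by 5.55% of all symbols and 2.76% of the other protein-coding genes. The median width of the peaks over clustered genes was 2100 bp, and that of the peaks over solitary genes 1050 bp, beside 900 bp for all peaks. Of the 311 peaks over clustered genes 34 were 10 kb or wider, as were 8 of the 400 over solitary genes and 1063 of all 126965 peaks.

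**Figure D1:**
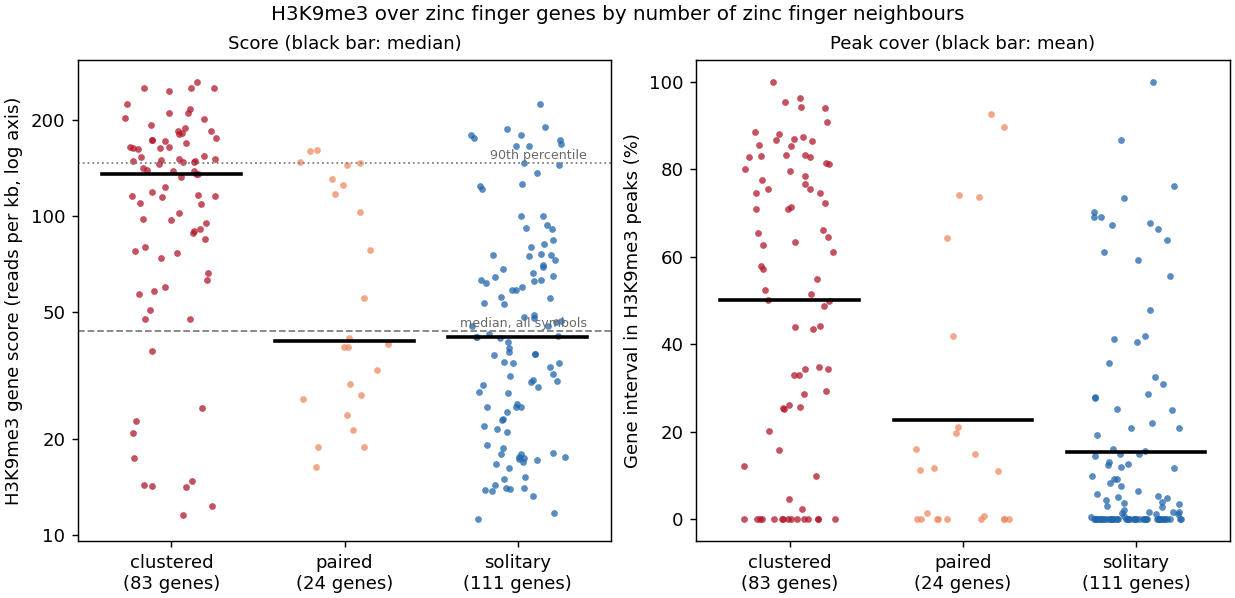
Gene score in reads per kb on a log axis (left) and percent of the gene interval in peaks (right) for each of 218 zinc finger genes, grouped as clustered, paired or solitary; black bars are medians on the left and means on the right. The clustered median of 135 lies near the 90th percentile of all symbols and the solitary median of 41.9 near their median, while both groups range from below 12 to above 200.

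Clustered genes also scored higher than solitary ones within chromosomes and within classes of gene length. On each of the 11 chromosomes with 3 or more clustered and 3 or more solitary members the clustered median was the higher, and so was the mean cover. On chromosome 12 the medians were 188 and 26.1, on chromosome 17 they were 202 and 22.02, and on chromosome 18, where they lay closest, 47.4 and 41.9. Solitary genes were longer, with a median of 34.0 kb against 18.3 kb. Among genes of up to 20 kb the median scores were 135 for 45 clustered and 55.5 for 39 solitary genes, a ratio of 2.43. From 20 to 50 kb the ratio was 3.52 and over 50 kb it was 3.31. A peak overlapped 71.1% of clustered and 43.6% of solitary genes of up to 20 kb. The shares were 92.6% and 51.5% from 20 to 50 kb, and 100% and 79.5% over 50 kb. Mean cover was 46.6% and 21.6%, 54.2% and 13.9%, and 54.1% and 10.6% in the same order. Genes that overlapped no other interval gave medians of 117 (44 clustered genes) and 41.8 (50 solitary genes).

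Members with 2 to 4 neighbours had a median of 115 and a mean cover of 44.1% (43 genes), and those with 5 or more had 150 and 56.5% (40 genes). Of the former 4 had no peak and of the latter 11. In 2 couples near the 500 kb limit, given as examples, the scores differed widely. Couples near the limit were not compared as a set. ZNF778 and ZNF276, 491 kb apart and counted as paired, scored 131 and 21.4. ZNF334 and ZNF335, 529 kb apart and counted as solitary, scored 137 and 16.7.

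The zinc finger genes of chromosome 19, taken by the same name rule, had a median score of 138 and a mean cover of 60.6% over 245 genes. All 218 members had a median of 64.5 and a mean cover of 29.4%. The 83 clustered members alone came near to the score of chromosome 19, with a median of 135, but had a mean cover of 50.1%. Of them 55.4% had 50% or more of their length in peaks, against 70.6% of the chromosome 19 genes. The latter were not split by neighbours. Without the 14 genes of the largest cluster, which had the lowest cluster median, the clustered median was 146 and the mean cover 57.1%. No test of these differences was possible with 1 library.

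Clustered members fell into 16 clusters of 3 to 14 genes on 11 chromosomes, joined while the gap to the next member was at most 500 kb. Cluster medians ran from 22.9 to 202 reads per kb. The 7 genes near the end of the long arm of chromosome 12, at 133498047 to 133783698 (hg19), formed a cluster without a low member. ZNF84 was highest there at 216 (95% Poisson interval 211 to 222) and ZNF268 lowest at 173 (170 to 176). All 7 lay above the 90th percentile of all symbols and had 72.4% to 96.4% of their length in peaks. ZNF10 (KOX1), whose KRAB domain is the one commonly used as a repressor in CRISPR interference, scored 176 (171 to 181) with 94.3% in peaks.

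In 4 more clusters, on chromosomes 3, 4, 5 and 17, the lowest member still scored above 100 reads per kb. The 8 genes at 44481262 to 44778575 of chromosome 3 had a median of 151, from ZNF445 at 115 (112 to 119) to ZNF501 at 184.8 (175 to 195), whose whole length lay in peaks. ZNF445 encodes a KRAB protein that helps to maintain imprints. The 5 genes at the tip of chromosome 4 ranged from ZNF732 at 110 (106 to 113) to ZNF595 at 252 (247 to 258), and ZNF595 carried the widest peak of any clustered gene, 32850 bp. The 6 genes at 178138593 to 178510538 of chromosome 5 ranged from ZFP2 at 117 (113 to 120.3) to ZNF879 at 165 (157 to 173). The 3 genes at 4981754 to 5095178 of chromosome 17 had the highest median of all clusters, 202, with ZNF594 at 247 (239 to 256) and ZNF232 lowest at 150.1 (144 to 156).

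On chromosome 1 both clusters held a member with a much lower score. Of the 5 genes at 247108849 to 247495148 ZNF669 led at 172 (162 to 183), and 4 genes lay above the 90th percentile, while ZNF496 at the far end scored 57.1 (54.6 to 59.6) with 12.2% in peaks. The intervals of ZNF695 and ZNF670 in this cluster are nested and share reads. Of the 3 genes at 40915774 to 41013841 ZNF643 scored 163 (157 to 170.4) and ZNF684 90.9 (86.3 to 95.6).

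The remaining clusters outside chromosome 16 scored lower or were mixed. On chromosome 10 the cluster of ZNF248 to ZNF37A ran from ZNF33A at 73.9 (71.7 to 76.2) to ZNF37A at 138 (134 to 143), and that of ZNF487P to ZNF32 from ZNF487P at 60.1 (58.2 to 62.1) to ZNF32 at 253 (239 to 267). On chromosome 6 the 4 genes beside the histone genes ran from ZNF193 at 80.3 (74.4 to 86.5) to ZNF165 at 115 (108 to 123), and none had 50% of its length in peaks. On chromosome 3 the cluster of ZNF619 to ZNF621 ran from ZNF620 at 50.6 (46.8 to 54.7) to ZNF619 at 95.2 (90.04 to 101). On chromosome 9 ZNF510 scored 119 (115 to 124) and ZNF367, 338 kb from its nearest neighbour, 22.8 (21.1 to 24.5). On chromosome 18 ZNF397 scored 162 (156 to 168) with 83.3% in peaks, whereas ZNF24 and ZNF396 beside it had no peak and scored 47.4 (43.7 to 51.5) and 37.7 (34.1 to 41.6).

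**Figure D2:**
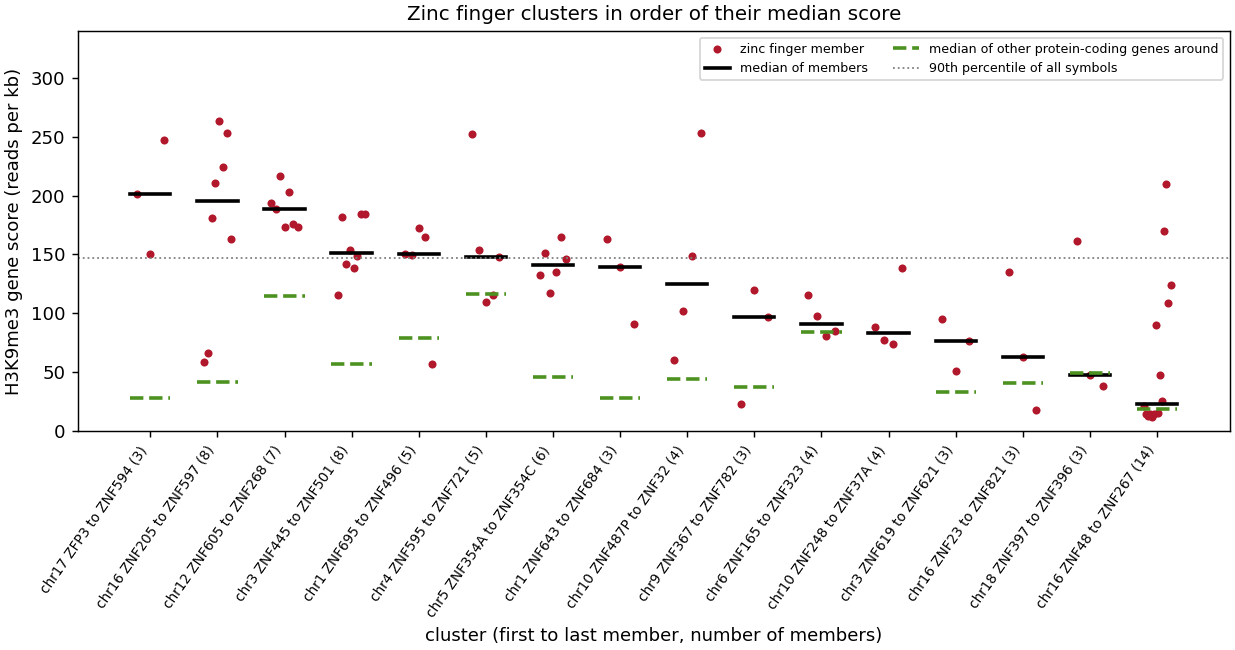
Scores of all members of the 16 clusters (red points), the cluster median (black) and the median of other protein-coding genes within 500 kb that overlap no member (green, dashed), in reads per kb, with clusters in order of their median. The medians fall from 202 on chromosome 17 to 22.9 in the cluster of ZNF48 to ZNF267 on chromosome 16, and the green level lies far below the members on chromosome 17 but close to them on chromosomes 4 and 6.

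Chromosome 16 held the cluster with the highest single score and the cluster with the lowest scores. In the 8 genes at 3162561 to 3493537 the first members, ZNF205 at 58.3 (53.1 to 63.9) and ZNF213 at 66.5 (60.9 to 72.5), had no peak. The next gene, ZNF200, scored 181 (174 to 188) with 82.8% in peaks. From there on all 6 genes lay above the 90th percentile, with ZNF75A at 264 (254.8 to 272), the highest score of all members, ZNF174 at 253 (242 to 264) and ZNF434 at 225 (218 to 232). The imprinted gene ZNF597 at the end of the cluster scored 163 (154 to 173). In the smallest cluster of the chromosome, 3 genes at 71481500 to 71918050, ZNF23 scored 135 (129 to 141) with 58.0% in peaks and ZNF821, 370 kb from its nearest neighbour, 17.4 (15.8 to 19.1) with no peak.

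The largest cluster, 14 genes at 30389427 to 31928622 of chromosome 16, was mostly bare. Its median was 22.9 reads per kb and 10 of its genes had no peak. ZNF764 scored 11.5 (8.65 to 15.1) on 53 reads and ZNF768 12.3 (8.50 to 17.1) on 34 reads, among the 5 lowest of all members. ZNF747, ZNF771, ZNF688 and ZNF689 lay between 14.1 and 14.7. Within this stretch ZNF785 scored 90.01 (83.0 to 97.4), with 49.9% of its length in peaks. Yet ZNF688 lies 6.24 kb from it at lower coordinates and ZNF689 16.8 kb from it at higher ones. The last genes towards the centromere, ZNF720 and ZNF267, scored 109 (107 to 111) and 124 (120.5 to 127). ZNF843, in an interval of only 1.05 kb, had the highest score of the cluster at 210 (183 to 240) but no peak. Of the 15 clustered genes without a peak on all chromosomes 13 lay on chromosome 16, and the other 2 were ZNF24 and ZNF396. Chromosome 16 holds 25 of the 83 clustered genes, and 10 of these 13 belong to the largest cluster.

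**Figure D3:**
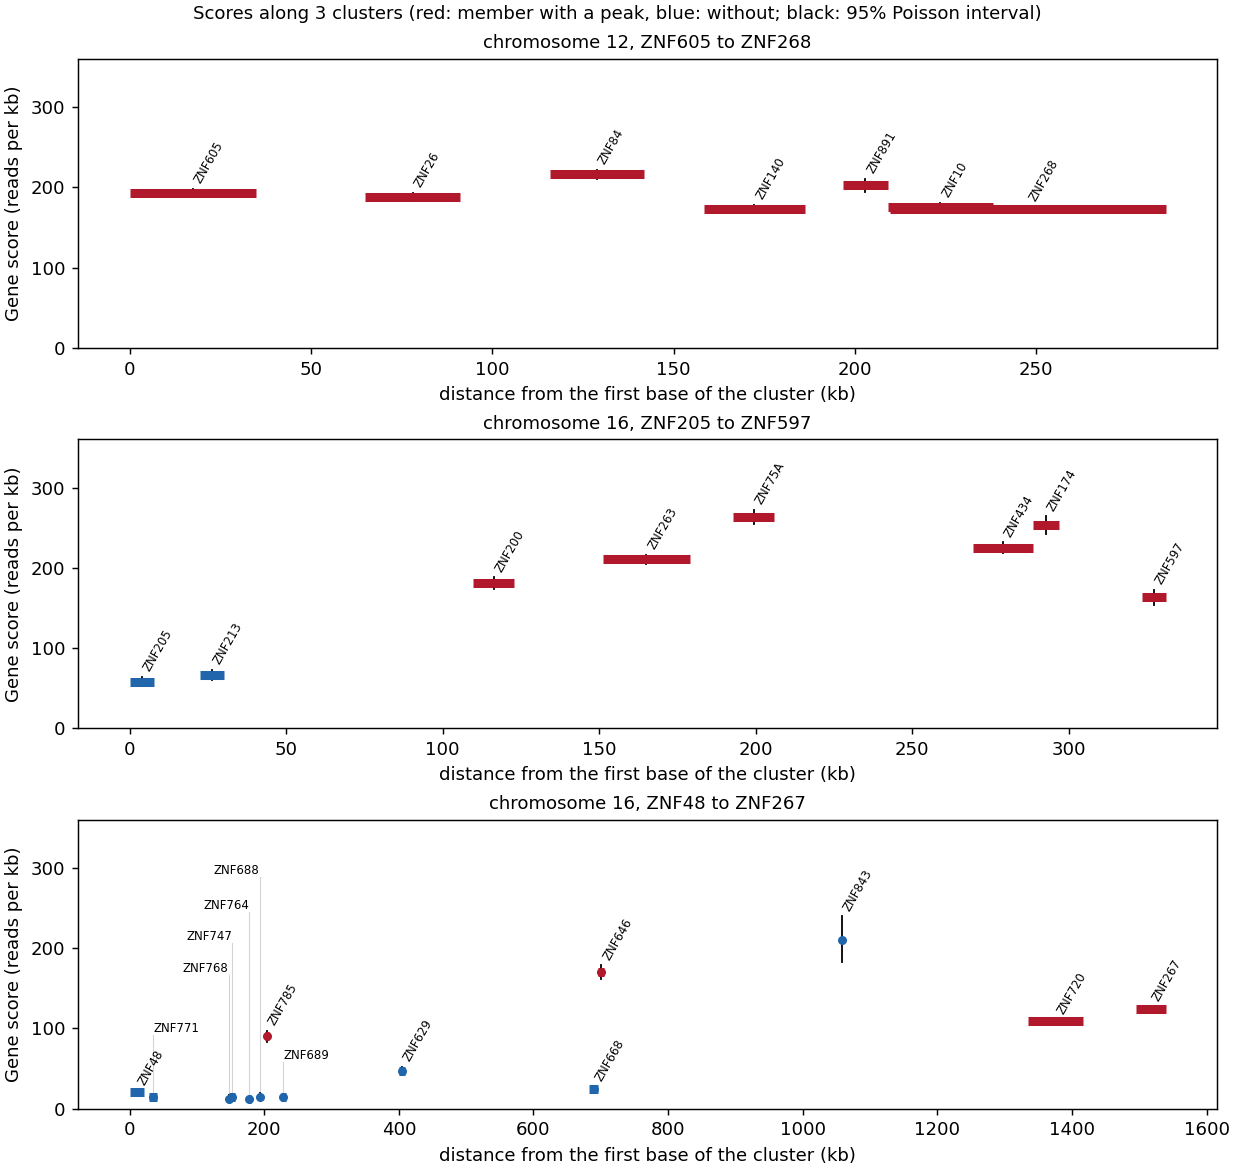
Gene score in reads per kb against distance from the first base of the cluster for the members of 3 clusters; each bar spans a gene interval, a dot marks its middle, the black line is the 95% Poisson interval, and red or blue tells whether a peak overlaps the gene. All 7 genes of the chromosome 12 cluster lie between 173 and 216, whereas in both chromosome 16 clusters genes without a peak stand beside genes above 150.

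The mark around the clusters differed from place to place. Over 252 other protein-coding genes within 500 kb of clustered but not of solitary members, which overlap no member, the median score was 41.6 and the mean cover 13.96%. Genes that also lay near paired members were kept in this set but left out of the next. Over 1321 such genes around solitary members only they were 28.4 and 6.33%. Relative to the median of such genes around it, the score of a clustered member was 2.26 times as high in the median (25th to 75th percentile 1.27 to 3.27, 77 genes with 3 or more such genes around), and 63 of these 77 scored above that level. For solitary members the ratio was 1.12 (0.746 to 2.34), and 59 of 99 scored above it. On chromosome 17 the 33 genes around the cluster had a median of 27.4 and a mean cover of 2.53% beside members at 202. At the tip of chromosome 4 the 12 genes around had 116 and 60.9%, and PIGG, an enzyme of GPI anchor synthesis, was highest at 169. Around the chromosome 12 cluster 8 genes had 115 and 49.0%, with ANKLE2, a protein of the nuclear envelope, highest at 155. Around the bare chromosome 16 cluster 57 genes had a median of 18.2 and a mean cover of 1.99%.

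Mean peak cover was lower at the start than at the end of the gene in all 3 groups. Over 81 clustered genes of 3 kb or more it rose by 27.4 percentage points from the first 10% of the gene (33.0%) to the final 10% (60.4%). The final stretch was the more covered in 46 of these genes and the first in 11. Over 109 solitary genes the means were 8.93% and 18.96%, with 27 genes more covered at the end, 16 at the start and 66 equal. Over 23 paired genes they were 18.9% and 28.6%, with 6 genes more covered at the end, 4 at the start and 13 equal. Other protein-coding genes had 5.36% and 4.75%. In the 64 solitary genes with a peak the final 10% was covered to 32.3% and in the 68 clustered genes with one to 71.9%. Past the end of clustered genes it was 50.5% in the next 2 kb and 34.8% from 50 to 100 kb, but these flanks hold other members by the definition of the group. Past solitary genes it was 10.4% and 8.48%, beside 5.55% and 7.22% past other genes.

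**Figure D4:**
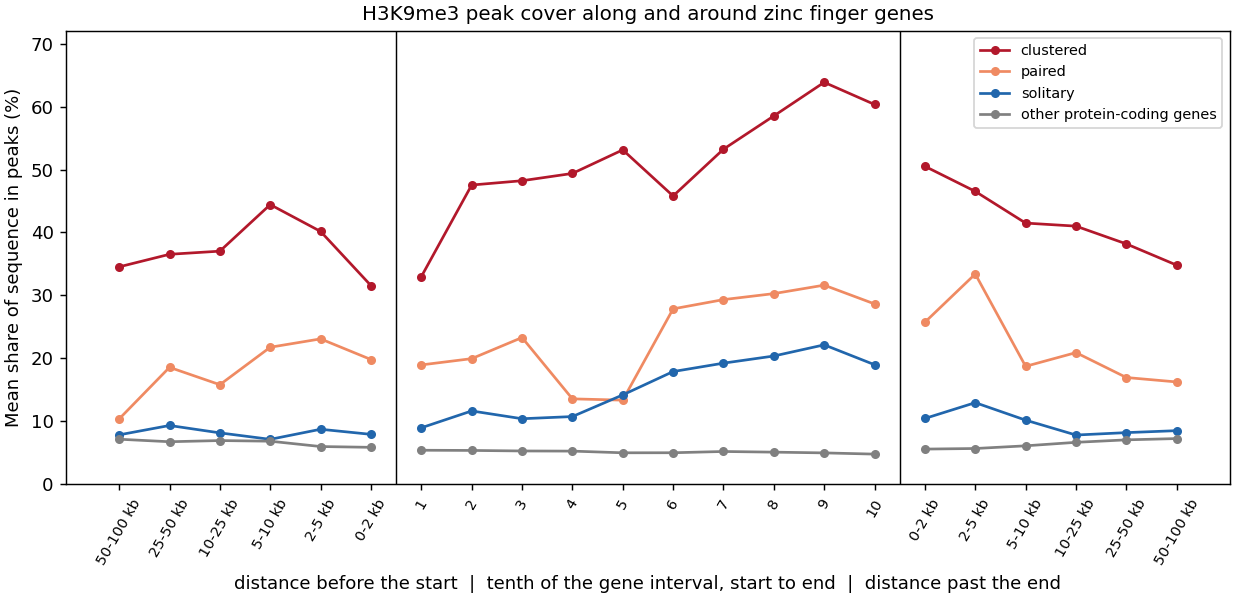
Mean percent of sequence in peaks in bands before the start, in consecutive stretches of 10% of the gene interval and in bands past the end, for 81 clustered, 23 paired, 109 solitary and 13439 other protein-coding genes of 3 kb or more (the flanks use all 83, 24, 111 and 14767 genes). The clustered line dips to 31.6% in the 2 kb before the start and 33.0% in the first stretch and peaks at 63.9% in the next to last.

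Start sites were often bare inside marked genes. The first base lay in a peak in 18 of 81 clustered genes (22.2%) and 8 of 109 solitary genes (7.34%), beside 6.25% of other protein-coding genes. The last base did so in 45 (55.6%) and 17 (15.6%), beside 4.32%. Of the 65 members with 50% or more of the gene in peaks, 50 had their first base outside any peak, and in 33 no peak reached within 1 kb of the start. In 10 of the 65 the whole 2 kb around the start lay in peaks, namely ZNF501, ZNF502, ZNF595, ZNF141, ZNF732, ZNF879 and ZNF354C in clusters, the paired gene ZFP37 and the solitary genes ZNF662 and ZNF300, the latter covered over its whole length. Several of these were named after their values were seen. Start counts were not made for the 407 other protein-coding genes with 50% or more of the gene in peaks. The counts over the 65 thus do not set members apart from other marked genes.

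**Figure D5:**
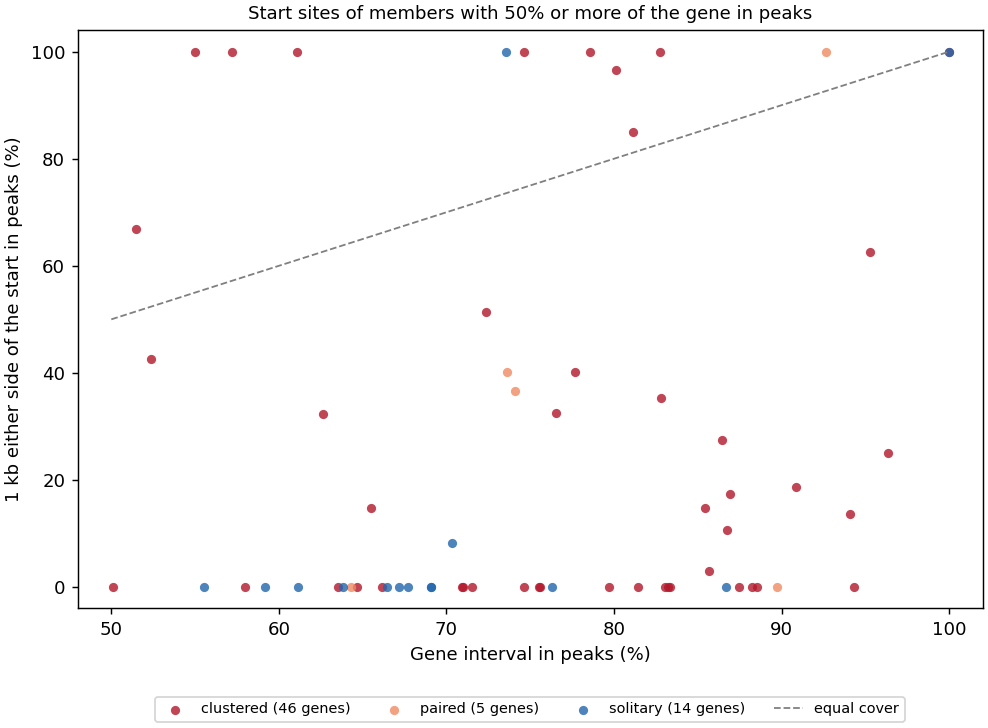
Percent of the 1 kb on either side of the start that lies in peaks against percent of the whole gene in peaks, for the 65 members with 50% or more of the gene in peaks. Of these 33 lie at 0 on the vertical axis and 10 at 100, and most of the others lie below the dashed line of equal cover.

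Couples with nearby start sites are given as examples. In 5 couples of members, chosen after their values were seen, the genes run in opposite directions from starts at most 510 bases apart. In all 5 both starts lay outside peaks with no peak within 1 kb. A start outside peaks was usual, with 188 of all 218 members and 65 of the 83 clustered ones. The couples thus do not set shared starts apart from other starts. ZNF434 and ZNF174 start with 159 bases between them and had 87.4% and 83.4% of their lengths in peaks. ZNF891 starts 101 bases from ZNF10 and 510 from ZNF268, with 88.6%, 94.3% and 81.4%. Its start thus counts with each of these genes, so the 5 couples are not all separate places. On chromosome 2 the paired genes ZNF514 and ZNF2 start with 18 bases between them and had 89.7% and 64.3%. ZNF668 and ZNF646 start with 186 bases between them in the largest cluster, and here the sides differed: ZNF668 scored 24.97 (22.4 to 27.8) with no peak and ZNF646 170 (162 to 179) with 66.2% in peaks.

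The 250 bases before the start are shown for 4 members with these patterns, from RefSeq on GRCh38.p14, matched by gene and not by position, so the start may differ from that of the hg19 interval. ZNF174 (chr16:3400965-3401214, plus strand) has a bare start between 2 covered genes, and ZNF646 (chr16:31074172-31074421, plus strand) a bare start between an unmarked and a covered gene. ZNF502 (chr3:44712410-44712659, plus strand) has its start in a peak, and ZNF764 (chr16:30558375-30558624, minus strand) is the lowest clustered gene. Sequences are written 5′ to 3′ along the gene, and capitals mark CCGGAAG or its reverse complement CTTCCGG, a core of ETS factor motifs.
ZNF174: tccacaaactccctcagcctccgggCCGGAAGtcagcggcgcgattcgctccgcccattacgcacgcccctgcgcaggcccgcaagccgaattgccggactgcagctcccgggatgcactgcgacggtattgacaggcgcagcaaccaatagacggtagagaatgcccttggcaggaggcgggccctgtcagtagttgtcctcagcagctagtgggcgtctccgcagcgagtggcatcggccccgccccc
ZNF646: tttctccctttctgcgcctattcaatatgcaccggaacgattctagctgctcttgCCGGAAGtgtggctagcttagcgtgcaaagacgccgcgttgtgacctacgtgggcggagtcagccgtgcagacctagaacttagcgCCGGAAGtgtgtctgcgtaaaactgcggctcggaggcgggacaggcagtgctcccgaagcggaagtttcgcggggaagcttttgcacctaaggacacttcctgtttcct
ZNF502: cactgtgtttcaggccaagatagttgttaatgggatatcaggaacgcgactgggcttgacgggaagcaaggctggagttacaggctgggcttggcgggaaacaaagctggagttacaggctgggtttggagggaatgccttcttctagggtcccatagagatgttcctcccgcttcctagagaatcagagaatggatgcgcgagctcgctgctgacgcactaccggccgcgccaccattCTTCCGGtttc
ZNF764: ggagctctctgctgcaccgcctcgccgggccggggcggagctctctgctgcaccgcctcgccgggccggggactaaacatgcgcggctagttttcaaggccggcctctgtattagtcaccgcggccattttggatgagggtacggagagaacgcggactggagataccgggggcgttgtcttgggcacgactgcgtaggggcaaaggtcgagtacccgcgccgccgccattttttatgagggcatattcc

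The 4 stretches, which are single examples, hold 24, 21, 13 and 26 CG dinucleotides in the order shown. Windows of 300 bases, 250 before and 50 after the start, were found for 193 of the 218 members. The median number of CG dinucleotides was 22 in 74 clustered, 24 in 97 solitary and 23 in 12162 windows of other protein-coding genes of these chromosomes. It was 20.5 in 26 members with the start in a peak (range 11 to 35) and 24 in 167 without (range 0 to 55). For clustered genes alone it was 19.5 and 22. The letters CCGGAAG occurred in 37 of the 74 clustered windows (50%), 28 of the 97 solitary windows (28.9%), 14.03% of those of other protein-coding genes and 10.7% of all 27305 windows. Among clustered genes they were found in 8 of 16 windows with the start in a peak and 29 of 58 without. GGGCGG, the core of the GC box, occurred in 56.8% of clustered, 64.9% of solitary and 59.5% of the other protein-coding windows, and TATAAA in 2.70%, 6.19% and 9.96%. TGACG, part of the cAMP response element, occurred in 29.7%, 38.1% and 29.5%. Among clustered genes GGGCGG was found in 5 of 16 windows with the start in a peak and 37 of 58 without. In the same windows TGACG was found in 8 and 14, and TATAAA in 0 and 2. These differences were not tested. All motifs were searched on both strands, their ends can overlap, and each was counted on its own. Over all 27305 windows GGGCGG occurred in 44.6%, TATAAA in 11.95% and TGACG in 25.01%. Windows of head-to-head genes share sequence, so these counts are not of separate stretches.

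No peak overlapped 46 of the 111 solitary members (41.4%), beside 57.1% of the other protein-coding genes of these chromosomes. The lowest scores were those of ZNF658 at 11.2 (10.4 to 11.97), ZNF207 at 11.7 (10.7 to 12.9), ZNF770 at 13.3 (11.1 to 15.7), ZNF319 at 13.7 (10.7 to 17.3) and ZNF598 at 13.8 (11.8 to 16.1). ZNF207 (BuGZ) acts at the mitotic spindle and ZNF598 is a ubiquitin ligase of collided ribosomes. ZNF658 lies on chromosome 9 near the centromere, 2004 kb from the nearest peak, and has near-identical sequence elsewhere. ZNF217, an oncogene of chromosome 20, scored 14.1 (12.95 to 15.2), ZNF384, a fusion partner in acute leukemia, 15.2 (13.6 to 16.8) and ZNF335, a factor of neural progenitors, 16.7 (15.1 to 18.5). ZNF143, an activator bound at many promoters, scored 18.7 (17.7 to 19.8). None of these 9 genes overlapped a peak. ZNF521, a regulator of blood progenitors, scored 25.2 (24.6 to 25.8) and ZNF148 36.8 (35.8 to 37.8), with 0.517% and 1.20% in peaks. ZNF750, a regulator of epidermal differentiation, scored 32.0 (28.7 to 35.6) with no peak.

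A minority of solitary genes reached the level of the clusters. ZNF436 on chromosome 1 was highest at 225 (216 to 235), with 61.1% in peaks, and lies 2800 kb from the nearest member. It was followed by ZNF300 on chromosome 5 at 191 (183 to 199), ZNF691 on chromosome 1 at 188 (177 to 199), ZFP90 on chromosome 16 at 180 (175 to 185) and ZNF717 on chromosome 3 at 179 (176 to 182). ZFP90 carried the widest peak of all members, 34950 bp, which runs past its end. In this group ZNF691 stood apart, with no peak in the gene and the nearest one 2.453 kb away. The genes around ZNF436 had a median of 19.2, so its score was 11.7 times that level, and ZNF300 stood at 7.18 times. ZNF281, a factor of stem cells, scored 124 (112 to 136) with 67.7% of its 3.36 kb in peaks.

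Other solitary genes of known function lay in between. ZFP57, which maintains imprints and lies beside the HLA genes, scored 79.9 (74.1 to 86.1), with 27.7% in peaks and its start in one. ZNF423, a cofactor in neural and fat cells, scored 68.4 (67.6 to 69.3) with 36 peaks over 336 kb that together covered 12.4%. ZFP42 (REX1), a marker of pluripotent cells, scored 59.7 (54.8 to 64.9) with no peak. Solitary genes with the nearest member at 500 to 1000 kb had a median of 72.9 (11 genes), those at 1000 to 5000 kb 46.9 (41 genes), and those farther away or alone on their chromosome 36.5 (59 genes). Other measures did not fall steadily with distance. The mean scores were 67.0, 70.9 and 49.1 in the same order. The 90th percentile was exceeded by 0, 8 and 3 genes (0%, 19.5% and 5.08%), beside 10.0% of all symbols.

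Paired genes, named here after their values were seen, included high and low scores. The highest were ZFP37 at 161 (156 to 167) and ZNF514 at 161 (155 to 166), and the lowest ZNF513 at 16.3 (12.4 to 21.1). Both genes of a couple were high for ZNF514 and ZNF2 (161 and 125), ZFP37 and ZNF883 (161 and 145) and ZNF184 and ZNF391 (148 and 117), and both were low for ZNF672 and ZNF692 (18.8 and 18.8), which lie 0.489 kb apart near the end of chromosome 1.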

How the data were processed

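The submitters' processing notes name Bowtie2, MACS and hg19, with neither version nor role. The deposited table gives a raw read count per gene interval, and the deposited signal, called the gene score here, is this count per kb of interval, not scaled to depth, control or copy number. The deposited peak list gives positions on a 150 bp grid, with no height or significance, and peaks that touch are listed apart.

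For a symbol with several intervals the one with the highest score was used. Gaps between members are the bases between intervals. Peak cover, cover in stretches of 10% of the gene by strand, and flanks were computed from merged peaks, with an overlap of 1 bp. Intervals of scores are exact Poisson at 95%. Counts are reads, not molecules. Gene types and promoter windows come from RefSeq (GRCh38.p14), used for names and letters only. Members and lists were chosen with earlier results of these data known. Named genes are the 8 highest and 5 lowest members, the highest and lowest of each cluster, the 5 highest and 5 lowest solitary members and 14 fixed members; others were named after their values were seen. A planned search of protein sequences was not run. Cover and neighbour counts were tested on simulated data. Computation used scipy 1.17.1, pandas 2.3.3, numpy 2.4.6 and matplotlib 3.10.9 under Python 3.11.15.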

Additional observations from a re-analysis of the deposited data

How the results depend on the processing

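Of 13 alternatives, 11 gave a log2 ratio of clustered to solitary medians, from 1.38 (pooled reads per kb) to 1.80 (without the largest cluster). Counting neighbours of any finger name was added after seeing the data. Of 87 recomputed values 32 equalled the main value, many because the alternative could not change them: each member has 1 interval and all are protein coding, so taking the longest interval or protein-coding symbols only leaves both groups as they were. None of the 11 log2 ratios changed sign, and a reversal was looked for in these ratios alone. Of the 87 values 4 moved beyond the limits used. The limit was 1.5 times for the ratio and for counts, and a 95% binomial interval over genes for medians, shares and mean cover. Such an interval treats neighbouring genes as separate and is not made for a mean of percentages. It served as a yardstick and not as a test. The 90th percentile was exceeded by 89 members when set over protein-coding symbols only and by 88 when set over intervals of 3 kb or more, against 50. A peak was present in 92.8% of clustered genes without the largest cluster. With 10% of the gene in peaks required, the share of solitary genes fell to 36.0%, while that of clustered genes was 78.3%. With 1 library, read depth limits the shortest genes most, and the IgG background was not analysed here.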

Other observations

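Of the 50 members above the 90th percentile of all symbols 2 had no peak, ZNF691 and ZNF843, both named after their values were seen. ZNF691 held 1101 reads in 5.87 kb and ZNF843 220 reads in 1.05 kb, and the nearest peaks lay 2.453 kb and 8.18 kb away. AHSP, a gene within 500 kb of the ZNF843 cluster, also combined a high score, 285, with no peak. The distribution of reads inside these intervals was not analysed here.

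A list of 21 regulators of H3K9 methylation and heterochromatin, which holds corepressors, methyltransferases, HP1 proteins, histone chaperones and the demethylases KDM4A, KDM4B and KDM4C, had a median score of 21.1, beside 34.3 for all protein-coding symbols. Of these genes 2 scored above the median of all symbols, 43.5, a level that 37.5% of protein-coding symbols exceed. CHAF1A, a subunit of the chromatin assembly factor, was lowest at 11.6 (10.6 to 12.7) and EHMT2 followed at 13.3 (11.6 to 15.1). TRIM28 scored 16.2 (13.2 to 19.6) and SETDB1 22.9 (21.4 to 24.5). ATF7IP, the partner of SETDB1, and the methyltransferase EHMT1 were highest at 52.1 (50.9 to 53.4) and 57.4 (56.5 to 58.4).

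Names follow the deposited table. In the chromosome 6 cluster ZNF192, ZNF193 and ZNF323 are older symbols of ZKSCAN8, ZSCAN9 and ZSCAN31, so a symbol does not set these genes apart from the ZSCAN and ZKSCAN genes nearby. Of the latter, named after their values were seen, ZSCAN16 and ZKSCAN4 lie within the cluster and scored 22.8 and 64.7. ZSCAN12 and ZSCAN23 lie past its end and scored 73.6 and 58.2. ZSCAN10, beside the cluster of ZNF205 to ZNF597, scored 93.5 without a peak.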
